A study of Homo sapiens with 83 samples.

Results

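The genes described here carry peptides to the cell surface on MHC class I. They were the 9 genes HLA-B, HLA-C, HLA-E, HLA-F, B2M, TAP1, TAP2, TAPBP and NLRC5, chosen by gene symbol from the 60237 genes in the expression table. Each of the 9 symbols had 1 entry, and all 9 passed the filter on low values in every comparison. RNA-seq of polyadenylated RNA had been made from 83 libraries of the human neuroblastoma lines SHEP and SKNAS, to ask how activated N-MYC alters transcript levels and their daily oscillation. Both lines overexpress N-MYC-ER, in which N-MYC is joined to the hormone-binding part of the estrogen receptor, so every library comes from cells that carry the transgene. MYC-ON cells had received 4-hydroxytamoxifen (4OHT), which activates the fusion protein, and MYC-OFF cells had received the ethanol vehicle. All cells were then given dexamethasone to set their clocks to a shared phase, and circadian time (CT) is given in hours since that step.

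SHEP had 28 MYC-OFF and 28 MYC-ON libraries, from 2 series of 14 time points between CT24 and CT76. SKNAS had 14 MYC-OFF libraries and 13 MYC-ON libraries from 1 series per condition, and its MYC-ON series ended at CT72. No group here lacked the transgene or went without dexamethasone, and 4OHT was not given to cells without the fusion, so an effect of 4OHT itself and one of N-MYC cannot be told apart. The time points of a series share an experiment, so p-values measure the spread between libraries within 2 experiments in SHEP and 1 in SKNAS.

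A class I molecule is a heavy chain, encoded by an HLA gene, paired with beta-2-microglobulin, encoded by B2M. Peptides cut by the proteasome are pumped into the endoplasmic reticulum by the TAP1-TAP2 transporter, tapasin (TAPBP) holds the empty heavy chain beside that transporter, and loaded molecules travel to the surface where cytotoxic T cells and NK cells read them. NLRC5 is a transactivator of class I genes, interferons raise most of the pathway, and neuroblastoma is known as a tumour of low class I display.

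Of the 9 genes, 7 lie in the MHC region of chromosome 6 in GRCh38. HLA-F (29722775 to 29738528) and HLA-E (30489509 to 30494194) are on the plus strand. HLA-C (31268749 to 31272130), HLA-B (31353872 to 31367067), TAP2 (32821833 to 32838739), TAP1 (32845209 to 32853816) and TAPBP (33299694 to 33314284) are on the minus strand. B2M is on chromosome 15 (44711358 to 44718851) and NLRC5 on chromosome 16 (56989485 to 57083531), both on the plus strand. The spans are those of Gencode 44, which is on the same build as the annotation of the table.

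The promoters of HLA-B, HLA-C, TAP1 and TAP2 are shown because these are the pairs of like genes that parted in the data below. They are the RefSeq windows on GRCh38.p14, from 250 bases before the transcript start to 50 after it, read 5′ to 3′ on the gene's strand. Capitals mark matches, on either strand, to an E-box (CACGTG, the canonical MYC site), a CCAAT box (CCAAT), a CRE core (TGACG), an interferon-stimulated response element (ISRE, GAAANNGAAA) or a kappa B site. Adjoining capitals can hold overlapping matches.
HLA-B, chr6:31357130-31357429, minus strand: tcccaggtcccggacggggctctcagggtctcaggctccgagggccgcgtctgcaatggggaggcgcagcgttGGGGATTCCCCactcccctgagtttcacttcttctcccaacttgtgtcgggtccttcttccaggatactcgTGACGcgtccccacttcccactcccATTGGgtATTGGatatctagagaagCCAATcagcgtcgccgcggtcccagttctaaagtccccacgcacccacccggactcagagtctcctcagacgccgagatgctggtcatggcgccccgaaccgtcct
HLA-C, chr6:31272043-31272342, minus strand: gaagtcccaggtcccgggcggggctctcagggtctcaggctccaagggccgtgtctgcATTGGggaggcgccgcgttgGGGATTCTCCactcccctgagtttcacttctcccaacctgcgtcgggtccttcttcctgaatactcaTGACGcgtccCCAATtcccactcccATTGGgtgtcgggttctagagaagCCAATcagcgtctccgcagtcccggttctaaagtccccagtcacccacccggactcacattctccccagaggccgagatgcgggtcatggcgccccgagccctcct
TAP1, chr6:32853655-32853954, minus strand: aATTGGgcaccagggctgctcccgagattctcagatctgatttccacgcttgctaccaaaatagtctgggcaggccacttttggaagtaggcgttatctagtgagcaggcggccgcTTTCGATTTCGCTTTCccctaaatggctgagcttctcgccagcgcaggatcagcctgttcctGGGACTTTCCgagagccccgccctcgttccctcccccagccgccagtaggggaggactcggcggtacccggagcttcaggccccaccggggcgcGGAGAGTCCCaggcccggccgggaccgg
TAP2, chr6:32838690-32838989, minus strand: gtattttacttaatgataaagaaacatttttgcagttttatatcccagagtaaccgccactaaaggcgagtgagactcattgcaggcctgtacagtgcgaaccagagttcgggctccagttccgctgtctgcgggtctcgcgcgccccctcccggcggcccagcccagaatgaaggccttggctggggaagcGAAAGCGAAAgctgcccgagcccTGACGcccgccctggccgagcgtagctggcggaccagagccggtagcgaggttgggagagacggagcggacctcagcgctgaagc

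The table of promoters held windows for 7 of the 9 genes, all but HLA-E and NLRC5, with a second window for TAP1. The HLA-B and HLA-C windows were identical at 270 of 305 aligned positions (88.5%), and those of TAP1 and TAP2 at 190 of 348 (54.6%). ISRE matches were found in 5 of the 7 genes (HLA-F, TAP1, TAP2, TAPBP and B2M), against 3.57% of 35116 RefSeq promoter windows. CCAAT boxes were found in 5 of 7 (34.6% of all windows), kappa B sites in 5 of 7 (11.3%) and CRE cores in 4 of 7 (24.6%). The E-box letters occurred in 0 of the 7 genes' windows and in 7.26% of all windows. A match is a run of letters only, and its absence says nothing of binding.

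By their medians, the SKNAS libraries stood apart before any gene was compared. Levels are in TPM, a share of transcripts that divides by transcript length and scales each library to a total of 1000000, so the depth of a library is unknown and counting error cannot be given. The library median of log2(TPM + 1), taken over the genes tested, averaged 4.10 ± 0.049 for SHEP MYC-OFF and 4.04 ± 0.059 for SHEP MYC-ON (SD, n = 28 each). For SKNAS it averaged 3.92 ± 0.52 without and 3.52 ± 0.48 with activated N-MYC (SD, n = 14 and 13), and 4 of the 14 and 10 of the 13 libraries lay below 3.8. SKNAS results are therefore also given after rescaling each library by the median of its gene ratios, with the library median as a covariate, and in the 10 MYC-OFF and 3 MYC-ON libraries with a median of at least 3.8. SHEP MYC-ON libraries were uneven in another way. The 10 most abundant genes held 14.3%, 14.3% and 16.2% of TPM at CT36, CT48 and CT72 of series 2, against 6.68% to 8.34% in series 1. Genes above 0 numbered 24697, 24896 and 25484 at CT64, CT68 and CT72 of series 2, against 21783 to 23477 in series 1. Beyond leaving out a whole series, the part of these libraries in the SHEP results was not tested. Mesenchymal neuroblastoma markers summed to 3194 to 5237 TPM over all SHEP libraries and 677 to 2694 TPM over all SKNAS libraries. The highest marker alone averaged 3469 and 3439 TPM in SHEP and 1431 and 1603 TPM in SKNAS, MYC-OFF first. At least 1 TPM on average was reached by 7 of the 8 markers in SHEP MYC-OFF and by all 8 in each other group. Adrenergic markers summed to 28.5 to 55.8 TPM over SHEP libraries, 265 to 619 TPM with SKNAS MYC-OFF and 82.9 to 261 TPM with SKNAS MYC-ON. Of 8 blood and immune markers, PTPRC, named here for its level, averaged 80.4 TPM before and 21.5 TPM after activation in SKNAS, while the other 7 summed to at most 0.948 TPM in any SKNAS library and 6.80 TPM in any SHEP library, with CD3E listed at 0 in every SKNAS library. The part of PTPRC-expressing cells in the SKNAS results was not tested.

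The heavy chain genes were at unlike levels in the lines. HLA-C, a classical heavy chain that also serves as a ligand of NK cell receptors, ran from 593 to 877 TPM (median 751) in SHEP MYC-OFF libraries and from 338 to 593 TPM (median 418) once N-MYC was active. Its SKNAS range was 137 to 220 TPM (median 167) in MYC-OFF and 85.02 to 138 TPM (median 120.0) in MYC-ON. Each SHEP library lay above every SKNAS library. HLA-B, the other classical heavy chain measured, ran in SHEP from 74.0 to 169 TPM (median 129.8) in MYC-OFF and from 45.4 to 161 (median 70.4) in MYC-ON. In SKNAS it ran from 124.5 to 197 (median 161) and from 102 to 201 TPM (median 153). All 4 ranges overlapped. The heavy chain genes are near copies of one another, reads were assigned to reference transcripts, and the alleles of the lines were not used, so levels of single HLA genes and differences between lines are uncertain.

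HLA-E and HLA-F, nonclassical heavy chains, were lower. HLA-E, which shows leader peptides to NK cells, spanned 102 to 116 TPM (median 109) and 50.7 to 93.6 TPM (median 59.7) in SHEP, MYC-OFF first. In SKNAS it spanned 22.0 to 72.2 (median 61.8) and 18.6 to 50.3 TPM (median 37.8). SHEP MYC-OFF stood clear of the other 3 groups. HLA-F spanned 4.37 to 14.1 TPM (median 9.46), 2.38 to 8.14 (median 5.12), 2.87 to 8.35 (median 4.46) and 0.903 to 3.95 (median 2.14) from SHEP MYC-OFF to SKNAS MYC-ON, with SHEP MYC-ON and SKNAS MYC-OFF overlapping over much of their ranges. B2M was the most abundant of the 9, at 1830 to 2727 TPM (median 2330), 1515 to 2272 (median 1727), 1648 to 2240 (median 1872) and 855 to 2048 (median 1607). The study used B2M to normalise its qPCR. The TPM of B2M were lower in MYC-ON in both lines here. As given below, the SKNAS change was not kept after rescaling, and the SHEP change missed the threshold in the means of the 2 series. TPM are a share of transcripts, and the qPCR was not examined.

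Among the loading genes, TAPBP spread the widest. It ran from 136 to 215 TPM (median 173) in SHEP MYC-OFF and from 46.5 to 94.99 (median 77.8) in its MYC-ON libraries, and from 11.97 to 72.2 (median 53.9) and 11.2 to 46.8 (median 17.95) in SKNAS. TAP1 and TAP2 encode the subunits of the peptide pump. TAP1 ran from 44.9 to 59.8 TPM (median 53.6) and 29.3 to 42.4 (median 35.2) in SHEP, and from 7.36 to 32.997 (median 29.1) and 7.77 to 19.9 (median 15.9) in SKNAS, MYC-OFF first. TAP2 ran from 46.1 to 78.9 (median 54.4), 28.4 to 74.9 (median 51.96), 15.04 to 37.9 (median 27.2) and 18.9 to 43.1 (median 31.3) in the same order. NLRC5, the transactivator, ran from 8.59 to 24.3 TPM (median 14.1), 10.2 to 27.5 (median 15.6), 6.18 to 12.7 (median 7.69) and 9.56 to 16.99 (median 13.002). TAP2 and NLRC5 were thus the genes whose MYC-ON median was near or above the MYC-OFF median in both lines.

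**Figure D1:**
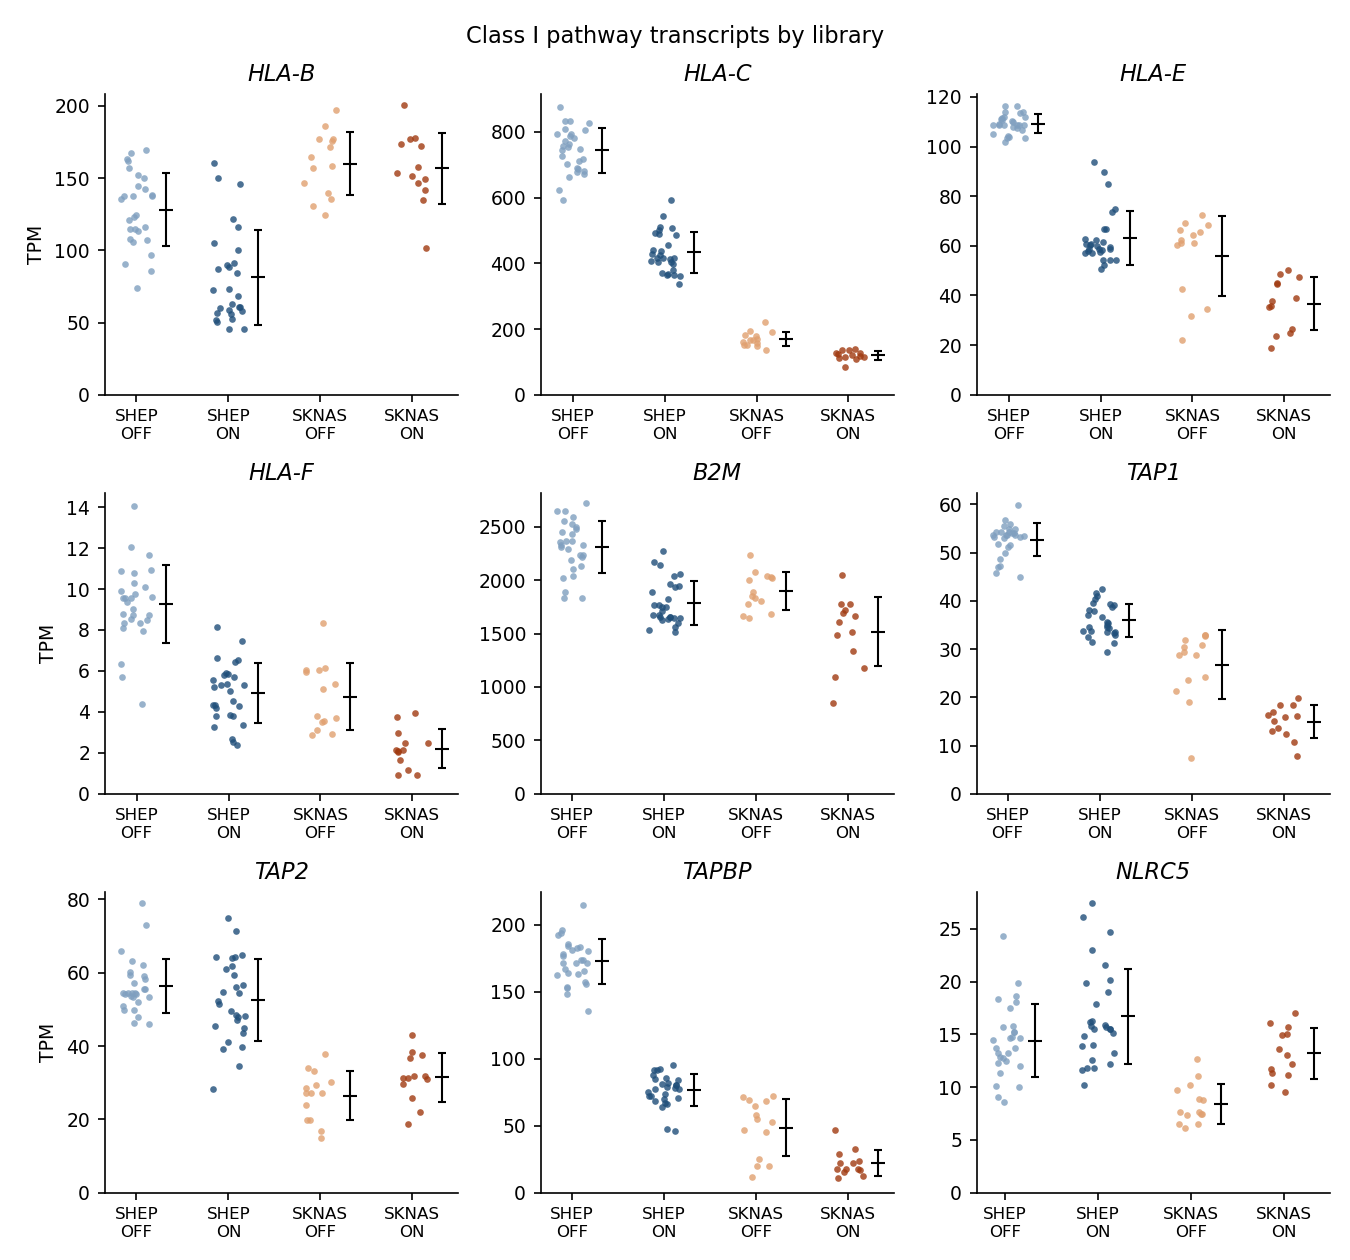
TPM of each of the 9 genes (y axis, from 0) in every library of the 4 groups (x axis), with the mean and SD at the right of the points. In SHEP, MYC-ON lies wholly below MYC-OFF for HLA-E, TAP1 and TAPBP, while the NLRC5 groups overlap.

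SHEP and SKNAS were compared within each condition. In MYC-OFF, 8 of the 9 genes were higher in SHEP, where 46.4% of 14926 genes were called higher, and HLA-B was lower, as were 32.1%. The differences were largest for HLA-C (log2 difference 2.13, SE 0.043, limma adjusted p = 7.28e-29) and TAPBP (1.98, SE 0.15, limma adjusted p = 3.59e-13). HLA-B differed by -0.33 (SE 0.079, limma adjusted p = 0.00032) and B2M by 0.28 (SE 0.038, limma adjusted p = 9.47e-08). In MYC-ON, 8 were again higher in SHEP, among 58.3% of 14620 genes, and HLA-B was lower, among 26.1%. HLA-B then differed by -1.10 (SE 0.094, limma adjusted p = 4.36e-12), HLA-C by 1.804 and TAPBP by 1.83. The median difference over all genes was 0.18 in MYC-OFF and 0.49 in MYC-ON, and 0.0405 and 0.0646 after rescaling. Rescaling took B2M to 0.11 in MYC-OFF (limma adjusted p = 0.282), and turned the MYC-ON differences of B2M (0.26) to -0.25 (limma adjusted p = 0.00582) and of NLRC5 (0.31) to -0.17 (limma adjusted p = 0.26). In MYC-ON, B2M was also not called without SHEP series 2 (0.14, limma adjusted p = 0.217), nor NLRC5 without series 1 (0.35, limma adjusted p = 0.0532), and neither was called among SKNAS libraries of high median.

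In SHEP, activated N-MYC went with lower levels of 7 of the 9 genes and with a higher level of NLRC5. A call asked for 0.05 or less after Benjamini-Hochberg adjustment over all genes tested, and for a change of 0.15 or more on the log2(TPM + 1) scale, and by this rule 38.9% of 14362 genes were lower and 33.0% were higher. The median change of the 9 genes was -0.72, against -0.036 over all genes tested. TAPBP changed most, from 173 ± 16.7 to 76.5 ± 11.7 TPM (SD, n = 28 each), a change of -1.18 in log2 (SE 0.053, limma adjusted p = 9.01e-25), and was lower in 28 of 28 pairs of libraries of 1 CT and series. With TAP1 and HLA-E, it was 1 of the 3 genes of the 9 whose MYC-ON libraries all lay below all MYC-OFF libraries. Genes outside the 9 also separated in this way, and the share over all genes was not counted.

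On the log2(TPM + 1) scale, the 4 heavy chain genes fell by like amounts in SHEP. That scale understates the change of HLA-F, the lowest of them. The mean TPM in MYC-ON over that in MYC-OFF was 0.53 for HLA-F and 0.63 for HLA-B. HLA-F fell by 0.81 (SE 0.071, limma adjusted p = 2.48e-14), HLA-E by 0.80 (SE 0.039, limma adjusted p = 3.81e-23), HLA-C by 0.79 (SE 0.038, limma adjusted p = 9.97e-24) and HLA-B by 0.72 (SE 0.065, limma adjusted p = 8.56e-14) on the log2 scale. These were means of 109 against 63.2 TPM for HLA-E, 744 against 433 TPM for HLA-C and 128 against 81.2 TPM for HLA-B. HLA-E, HLA-F and HLA-C were lower in 28 of 28 pairs, and HLA-B in 27 of 28. B2M fell less, by 0.37 (SE 0.036, limma adjusted p = 8.92e-13), from 2308 ± 243 to 1788 ± 205 TPM (SD, n = 28 each), also in 28 of 28 pairs. In bulk RNA, fewer cells with a transcript and less of it per cell cannot be told apart.

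The subunits of the peptide transporter parted. TAP1 fell by 0.54 (SE 0.026, limma adjusted p = 1.21e-23), from 52.7 ± 3.39 to 35.98 ± 3.42 TPM (SD, n = 28 each). TAP2 was at 56.3 ± 7.34 and 52.5 ± 11.1 TPM (SD, n = 28 each), a change of -0.12 (95% interval -0.23 to -0.011, limma adjusted p = 0.042) that was under the size asked of a call, lower in 17 of 28 pairs. NLRC5 rose from 14.4 ± 3.45 to 16.7 ± 4.53 TPM (SD, n = 28 each), a change of 0.19 (SE 0.069, limma adjusted p = 0.0102), higher in 21 of 28 pairs. Its call was lost in series 2 alone (0.17, limma adjusted p = 0.14) and in the means of the 2 series (limma adjusted p = 0.116), where B2M also missed the threshold (-0.37, limma adjusted p = 0.0504). TAP2 was called lower in series 1 alone (-0.22, limma adjusted p = 0.0298).

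In SKNAS the 9 genes changed unevenly, and the calls turned on the scaling of the libraries. On TPM, 6 genes were lower (34.2% of 13886 genes were) and NLRC5 was higher (13.9% were), with a median change of -0.47 against -0.29 over all genes. HLA-B did not change detectably, at 160 ± 22.0 and 157 ± 24.6 TPM (SD, n = 14 and 13), a change of -0.01 in log2 (95% interval -0.18 to 0.15, limma adjusted p = 0.915). HLA-C fell by 0.47 (SE 0.085, limma adjusted p = 0.000321), from 170 ± 21.8 to 120 ± 14.2 TPM (SD, n = 14 and 13), lower in 13 of 13 pairs. HLA-E fell by 0.55 (limma adjusted p = 0.0137), HLA-F by 0.82 (limma adjusted p = 0.00059) and B2M by 0.34 (limma adjusted p = 0.0171).

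TAPBP fell by 1.01 (SE 0.23, limma adjusted p = 0.00242) and TAP1 by 0.74 (SE 0.17, limma adjusted p = 0.00254) in SKNAS, each lower in 11 of 13 pairs. TAP2 was at 26.5 ± 6.67 and 31.5 ± 6.63 TPM (SD, n = 14 and 13), a change of 0.26 (95% interval -0.060 to 0.58, limma adjusted p = 0.162), higher in 10 of 13 pairs. NLRC5 rose from 8.44 ± 1.89 to 13.2 ± 2.38 TPM (SD, n = 14 and 13), by 0.57 (SE 0.13, limma adjusted p = 0.00282), higher in 11 of 13 pairs. In 7 of the 13 MYC-ON libraries NLRC5 lay above every MYC-OFF library.

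**Figure D2:**
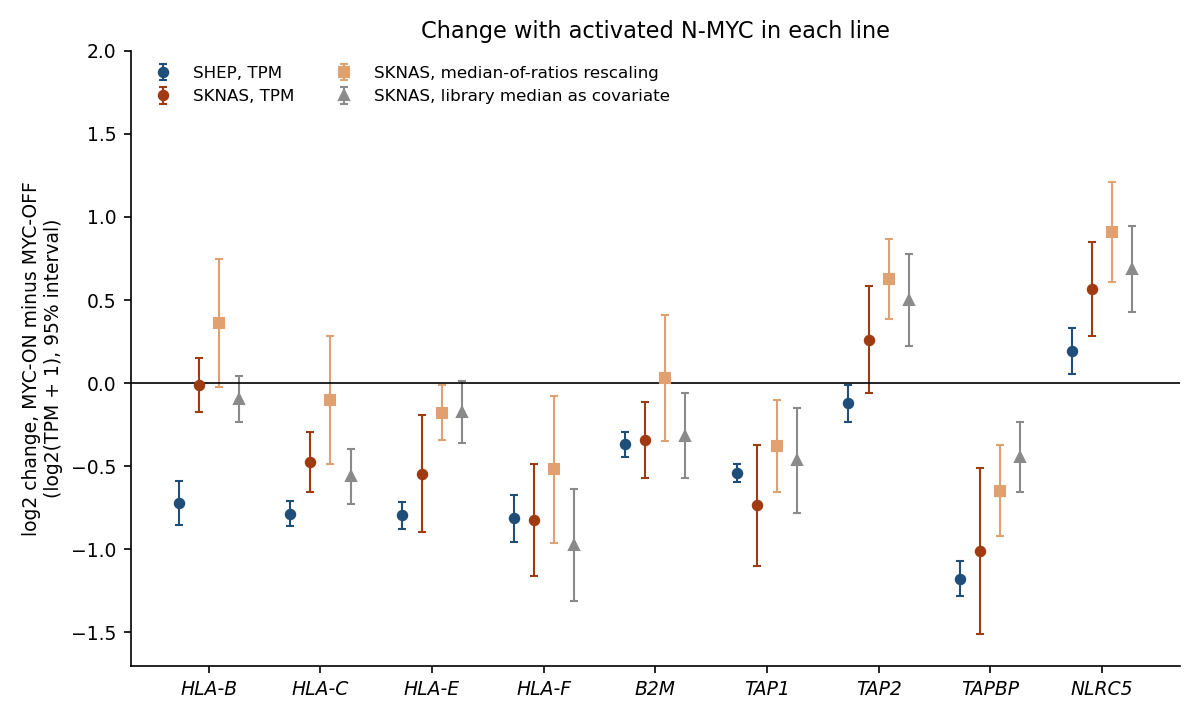
Log2 change from MYC-OFF to MYC-ON on log2(TPM + 1) (y axis) for each gene (x axis), with 95% intervals from limma, in SHEP and in SKNAS under 3 treatments of the library scale. HLA-B is at -0.72 in SHEP and -0.01 in SKNAS, and NLRC5 lies above 0 in all 4 fits.

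After rescaling, which moved the median change of all SKNAS genes from -0.29 to 0.032, 3 genes were lower (HLA-F -0.52, TAP1 -0.38, TAPBP -0.65) and 2 were higher (NLRC5 0.91, TAP2 0.62), while HLA-C was at -0.10 (limma adjusted p = 0.66), HLA-E at -0.18 (limma adjusted p = 0.0662) and B2M at 0.03 (limma adjusted p = 0.892). Of all genes, 23.9% were then lower and 27.6% higher, so the counts of 3 and 2 in 9 are near the background. With the library median as covariate, HLA-C (-0.56), HLA-F (-0.98), B2M (-0.32), TAP1 (-0.47) and TAPBP (-0.44) were lower, NLRC5 (0.69) and TAP2 (0.50) were higher, and HLA-E was not called (-0.17, limma adjusted p = 0.106), where 25.9% of all genes were lower and 28.3% higher. In the 10 and 3 libraries with a median of at least 3.8, HLA-F was the 1 gene called (-1.18, limma adjusted p = 0.0396), NLRC5 was at 0.60 (limma adjusted p = 0.362) and HLA-C at -0.59 (limma adjusted p = 0.0893), and of all 14217 genes 863 were called higher and 1207 lower. CT was a factor in this fit, so the change came from CT32 and CT44, the times at which both conditions had such a library. The same holds for every limma change between conditions, and for the interaction, given below for libraries of high median. A call lost in those fits therefore says little.

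Levels of some genes moved with the library median inside a condition. Over SKNAS MYC-OFF libraries, TAPBP averaged 60.4 TPM (n = 10) at a median of at least 3.8 and 19.3 TPM (n = 4) below it. HLA-E averaged 65.1 and 32.7 TPM, TAP1 30.3 and 17.8 TPM, and TAP2 29.5 and 18.9 TPM, in the same groups, with overlapping ranges for TAP2. HLA-C averaged 164 and 184 TPM, HLA-B 163 and 153 TPM, and NLRC5 8.76 and 7.63 TPM, with no such gap. Among the 10 MYC-OFF and 3 MYC-ON libraries of high median, the conditions did not overlap for HLA-E (60.2 to 72.2 against 47.4 to 50.3 TPM), TAP1 (24.3 to 32.997 against 15.1 to 18.4), HLA-C (137 to 193 against 85.02 to 113) or HLA-F (2.90 to 6.12 against 0.903 to 1.64), while TAPBP overlapped (45.02 to 72.2 against 28.9 to 46.8). HLA-B, B2M, TAP2 and NLRC5 overlapped as well. The share of all genes without overlap was not counted, so these gaps do not mark out the 9 genes.

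**Figure D3:**
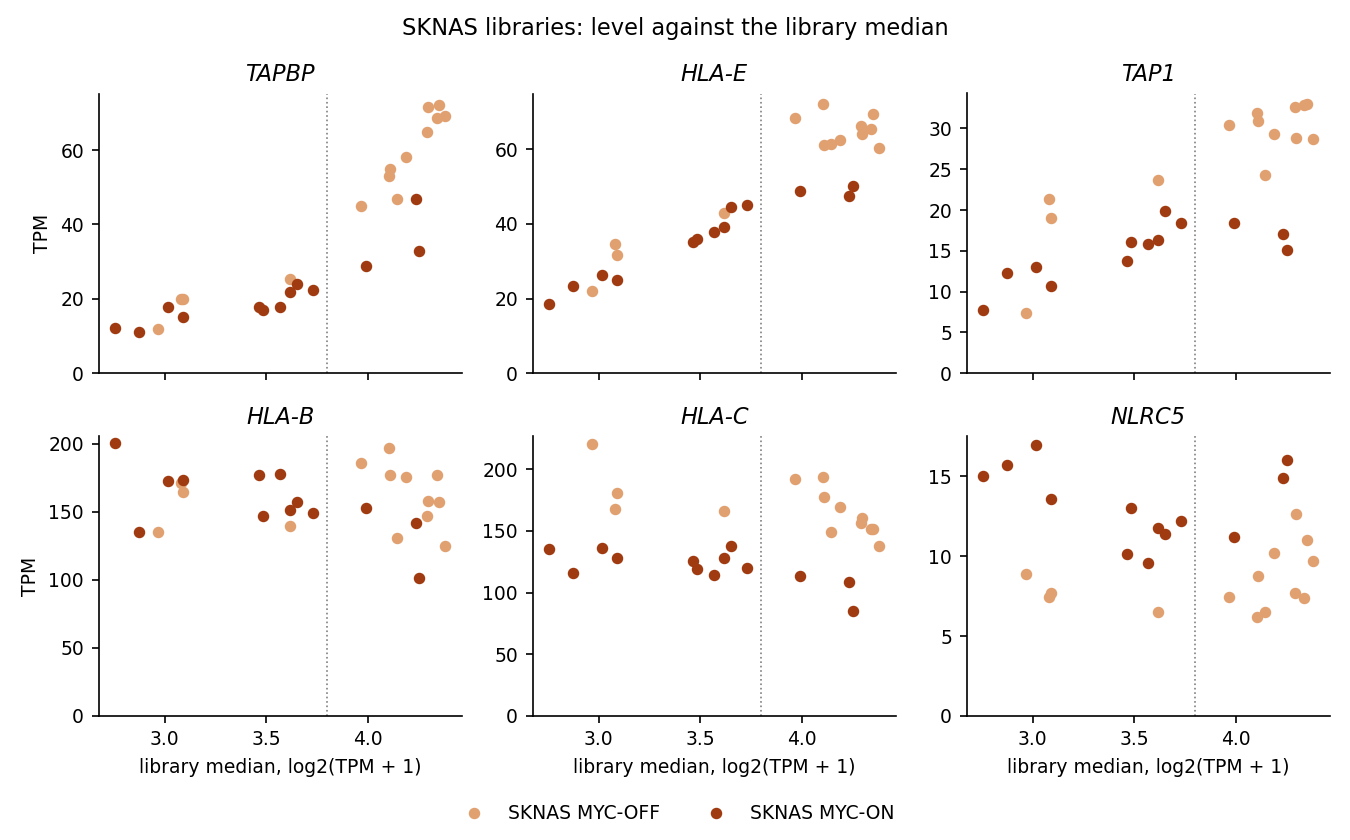
TPM of 6 genes (y axis, from 0) against the library median of log2(TPM + 1) (x axis) in SKNAS MYC-OFF and MYC-ON libraries, with a dotted line at 3.8. TAPBP and HLA-E are lower in libraries of low median in both conditions, TAP1 is so in MYC-OFF but overlaps in MYC-ON (7.77 to 19.9 TPM at low and 15.1 to 18.4 TPM at high medians), and NLRC5 averages 14.05 TPM in MYC-ON at high medians and 12.9 TPM at low ones, against 8.76 and 7.63 TPM in MYC-OFF.

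The change with activated N-MYC was tested for a difference between lines as an interaction, for which 13.4% of 14870 genes were called higher (less lowered or more raised in SKNAS) and 38.1% lower. The count over the 9 genes was 4 higher and 0 lower. HLA-B differed most, by 0.71 (SE 0.11, limma adjusted p = 2.79e-07). TAP2 differed by 0.38 (limma adjusted p = 0.00787), NLRC5 by 0.37 (limma adjusted p = 0.0134) and HLA-C by 0.31 (limma adjusted p = 0.000339). For the remaining genes the interval of the difference was 0.018 to 0.48 for HLA-E (limma adjusted p = 0.0645), -0.29 to 0.27 for HLA-F, -0.14 to 0.19 for B2M, -0.41 to 0.020 for TAP1 and -0.17 to 0.50 for TAPBP. Rescaling raised the count to 7, with HLA-B at 0.99, and the share of all genes called higher to 25.6%. Among SKNAS libraries of high median limma called 0 of the 9 and 14.8% of all genes, with 5 of the 9 and 26.1% of all genes at an unadjusted p under 0.05 (HLA-B 0.59, limma adjusted p = 0.117). Without SHEP series 1 the count was 2 (HLA-B and HLA-C), where 9.53% of all genes were called higher. Without series 2 it was 3, where 8.49% of all genes were called higher and NLRC5 was at 0.35 (limma adjusted p = 0.0832).

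Ratios of genes within a library do not depend on how the library was scaled, but they do carry shifts that differ between genes. In SKNAS MYC-OFF, levels of TAPBP, HLA-E and TAP1 moved with the library median, while those of HLA-B and HLA-C showed no such gap. Low medians were more frequent in MYC-ON, so the SKNAS ratios are not free of this difference. Of 6 ratios within a library, tested in each line with sign-flip permutations over same-CT pairs and adjusted over the 12 tests, 4 differed between conditions in SHEP and 5 in SKNAS. HLA-B to HLA-C stood at 0.17 ± 0.022 and 0.19 ± 0.075 in SHEP, MYC-OFF first (SD, n = 28 each), with no detectable change (mean log2 ratio 0.06, permutation adjusted p = 0.515). It rose in SKNAS from 0.95 ± 0.13 to 1.2996 ± 0.13 (SD, n = 14 and 13), by 0.47 in log2 (SE 0.049, exact permutation adjusted p = 0.000977), higher in 13 of 13 pairs. The rise was 0.37 among the libraries of high median, where the MYC-OFF ratios (0.87 to 1.17) lay below the MYC-ON ratios (1.19 to 1.35, exact permutation p = 0.0035, the smallest this number of libraries allows).

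TAP1 to TAP2 fell in both lines. The ratio went from 0.95 ± 0.14 to 0.72 ± 0.20 (SD, n = 28 each) in SHEP, a change of -0.43 in log2 (SE 0.063, permutation adjusted p = 6e-05, from the smallest p that 100000 resamples give), lower in 26 of 28 pairs. In SKNAS it went from 1.04 ± 0.30 to 0.48 ± 0.052 (SD, n = 14 and 13), a change of -1.04 (SE 0.16, exact permutation adjusted p = 0.00176), lower in 12 of 13 pairs. Libraries of high median gave -1.10, with 0.76 to 1.65 in MYC-OFF and 0.46 to 0.51 in MYC-ON. TAP1 to PSMB9, neighbours that share a promoter region, rose by 0.12 in SHEP (permutation adjusted p = 0.0191) and fell by 1.01 in SKNAS (exact permutation adjusted p = 0.00293), and the SHEP value was 0.054 (permutation adjusted p = 0.514) in series 2 alone.

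**Figure D4:**
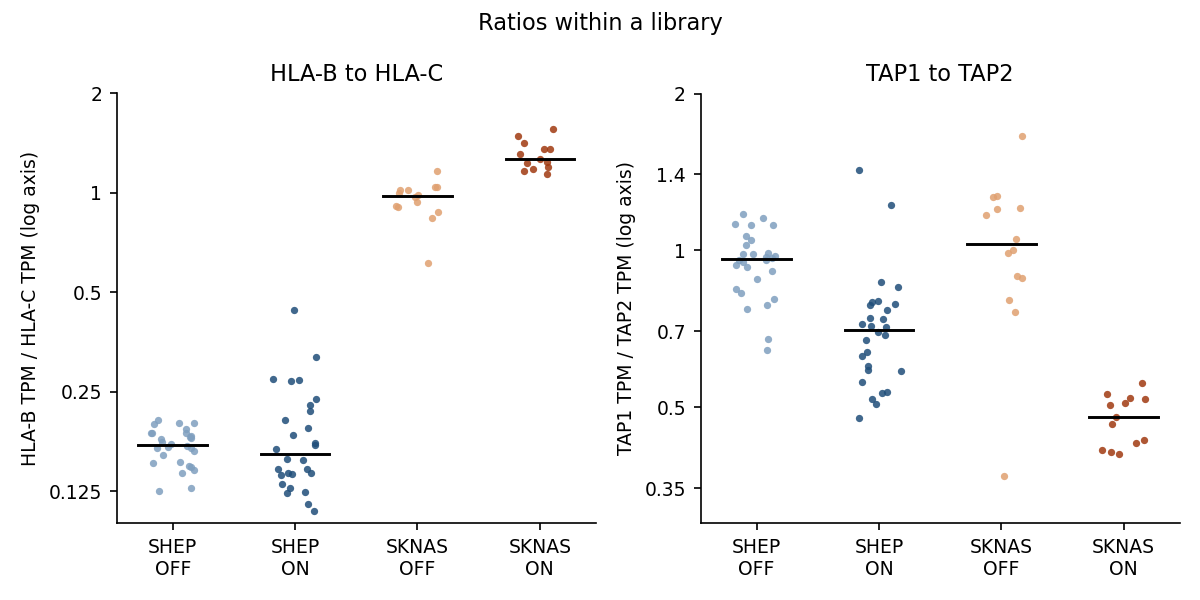
Ratio of TPM within a library (y axis, log scale) for HLA-B to HLA-C and TAP1 to TAP2 in the 4 groups (x axis), with a bar at the group's median. The SKNAS HLA-B to HLA-C ratios lie at 0.62 to 1.17 in MYC-OFF and 1.14 to 1.56 in MYC-ON, and no SHEP library exceeds 0.44 for this ratio.

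Heavy chains were also set against their partner chain, and no ratio was tested for a difference between lines. The summed TPM of HLA-B, HLA-C, HLA-E and HLA-F over that of B2M went from 0.43 ± 0.022 to 0.33 ± 0.059 in SHEP (SD, n = 28 each), a fall of log2 ratio by 0.41 (SE 0.05, permutation adjusted p = 6e-05) in 26 of 28 pairs. In SKNAS the ratio was 0.21 ± 0.028 and 0.22 ± 0.073 (SD, n = 14 and 13), with a change of 0.06 (exact permutation adjusted p = 0.591), and among libraries of high median the change was -0.34 (exact permutation p = 0.028). HLA-F to HLA-B fell by 0.22 in SHEP (permutation adjusted p = 0.0228), where series 2 alone gave -0.17 (permutation adjusted p = 0.457), and by 1.123 in SKNAS (exact permutation adjusted p = 0.00176). HLA-E to HLA-B did not change detectably in SHEP (-0.08, permutation adjusted p = 0.191). In SKNAS it fell by 0.55 (exact permutation adjusted p = 0.0306), and was at -0.10 among libraries of high median (exact permutation p = 0.483).

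Over the time course in SHEP MYC-ON, HLA-B climbed and the genes for TAP2, tapasin and NLRC5 declined. Linear trends were fitted over CT24 to CT76 and are given as log2 change per 24 h, called where the p adjusted in limma did not exceed 0.05. By the study's methods, ethanol or 4OHT was given 24 h before dexamethasone. CT therefore rises together with hours since that treatment and hours in culture, and the trends cannot tell these apart. In MYC-ON, 4 of the 9 genes rose and 3 fell, where 20.5% of 14261 genes rose and 36.9% fell. HLA-B rose by 0.67 (SE 0.062, limma adjusted p = 3.38e-10), from 53.6 ± 6.33 TPM at CT24 to CT36 to 107 ± 21.5 TPM at CT60 to CT72 (SD, n = 8 each). Its early range of 45.4 to 60.9 TPM lay below its late range of 86.7 to 149.8 TPM. HLA-F rose by 0.30 (limma adjusted p = 0.00335), HLA-E by 0.21 (limma adjusted p = 7.3e-05) and B2M by 0.11 (limma adjusted p = 0.00108).

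NLRC5 moved the other way. It fell by 0.42 per 24 h in SHEP MYC-ON (SE 0.055, limma adjusted p = 1.81e-07), from 22.3 ± 3.87 TPM at CT24 to CT36 to 12.9 ± 1.86 TPM at CT60 to CT72 (SD, n = 8 each). Without activation it stood at 16.2 ± 4.98 and 11.9 ± 2.03 TPM (SD, n = 8 each) over the same windows. TAP2 fell by 0.34 (limma adjusted p = 2.2e-05), from 64.6 ± 6.03 to 43.7 ± 7.21 TPM (SD, n = 8 each), and TAPBP fell by 0.22 (limma adjusted p = 0.000906). Series 1 and series 2 alone both gave falls of NLRC5 (-0.30 and -0.54) and TAP2 (-0.48 and -0.20) and a rise of HLA-B (0.72 and 0.63) that were called. The HLA-E and HLA-F rises were not called in series 2 alone, nor the TAPBP fall in series 1 alone (-0.08, limma adjusted p = 0.146) or with the library median as covariate (-0.17, limma adjusted p = 0.0645).

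In SHEP MYC-OFF 5 trends were called over both series together. HLA-B (0.30), HLA-F (0.24), B2M (0.17) and HLA-C (0.16) rose and TAP2 (-0.15) fell, where 5.90% of 14264 genes rose and 10.5% fell. HLA-C went from 668 ± 45.9 to 795 ± 26.7 TPM between the early and late windows (SD, n = 8 each), and B2M from 2020 ± 157 to 2449 ± 85.1 TPM. In series 2 alone limma called 0 of the 9 trends, with 5 at an unadjusted p under 0.05, HLA-B at 0.12 and HLA-C at 0.12. Of all genes in that series, 2.31% were called and 14.8% had an unadjusted p under 0.05. Series 1 alone gave 3 (HLA-B, HLA-C and B2M), all rises, where 3.37% of genes rose. The HLA-B values of series 2 began at 115 TPM, passed through 163 TPM at CT40 and returned to 116 TPM at CT48, while those of series 1 began at 74.0 TPM.

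The trends differed between conditions in SHEP for 5 genes. HLA-B (0.37 per 24 h, limma adjusted p = 0.000219) and HLA-E (0.21, limma adjusted p = 0.000147) climbed faster in MYC-ON, where 16.1% of 14362 genes had a higher trend. TAPBP (-0.31, limma adjusted p = 0.000106), NLRC5 (-0.27, limma adjusted p = 0.0241) and TAP2 (-0.19, limma adjusted p = 0.0238) had a lower one, as did 27.4%. HLA-B stood at 160.6 TPM in MYC-ON and 157 TPM in MYC-OFF at CT76 of series 2, the 1 pair in which it was not lower in MYC-ON. Series 2 alone gave 1 higher (HLA-B 0.51) and 1 lower (TAPBP -0.43) difference, where 11.2% of all genes were higher and 20.7% lower. TAPBP in MYC-ON of that series stood at 47.9, 46.5 and 77.8 TPM at CT68, CT72 and CT76. The NLRC5 difference was called in neither series alone (-0.26 and -0.28, limma adjusted p = 0.104 and 0.139), nor with the library median as covariate (-0.23, limma adjusted p = 0.0698). The TAP2 difference was not called after rescaling (-0.15, limma adjusted p = 0.082).

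**Figure D5:**
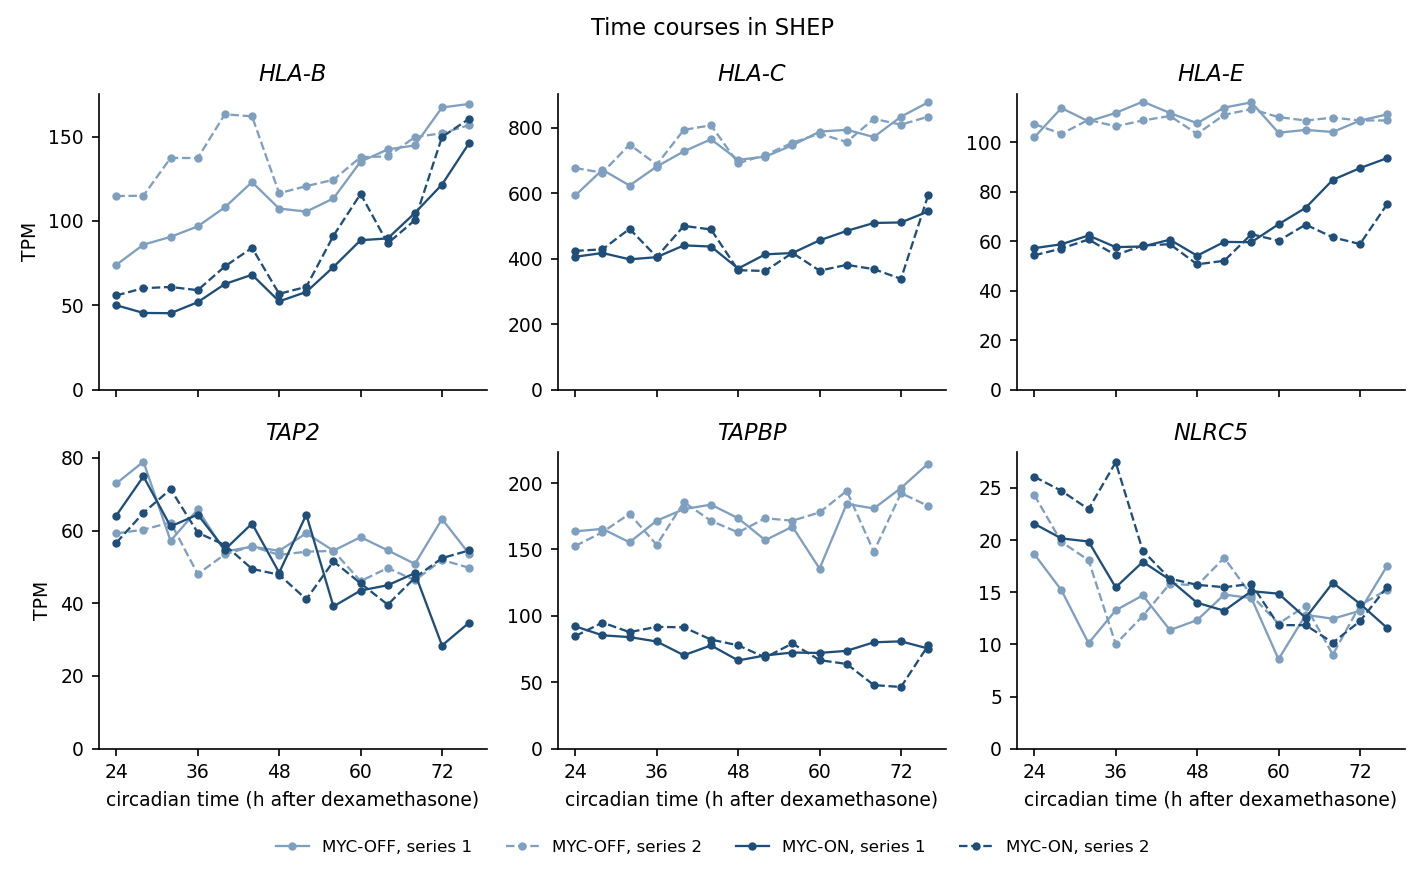
TPM (y axis, from 0) against circadian time in hours after dexamethasone (x axis) for 6 genes in SHEP, with MYC-OFF and MYC-ON and series 1 (solid) and series 2 (dashed). HLA-B in MYC-ON climbs from 50.1 and 55.9 TPM at CT24 to 146 and 160.6 TPM at CT76, while NLRC5 falls from 21.6 and 26.1 TPM to 11.6 and 15.5 TPM.

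In SKNAS, 0 of the 9 trends were called by limma in MYC-OFF, where 0% of 14119 genes rose and 0% fell, and 5161 genes had an unadjusted p under 0.05. Unadjusted, TAPBP and NLRC5 passed that level. In MYC-ON 0 were called, with 0.0374% of 13365 genes rising and 0.0748% falling, and B2M passed unadjusted. The difference of trends between conditions was called for 0 of the 9 genes, and for 0.0288% of 13886 genes as higher and 0.0576% as lower. B2M (-0.37) and NLRC5 (0.43) had an unadjusted p under 0.05 there and a limma adjusted p of 0.998. SHEP and SKNAS trends were not tested against each other.

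A 24 h rhythm was asked of each gene with a cosine of fixed period beside the linear trend. The limma F test called 0 of the 9 genes in any group, where 0.126% of all genes were called in SHEP without activation, 0.0140% with it, and 0% in either SKNAS condition. At an unadjusted p under 0.05 there were 4 genes in SHEP MYC-OFF (NLRC5, HLA-B, TAP2 and B2M), where 10.6% of all genes passed that level, and 0 in each of the other groups. In SHEP MYC-OFF the 4 became 1 (NLRC5) in series 2 alone, where 5.90% of all genes passed, and 0 in series 1 alone, where 6.84% passed. NLRC5 had the lowest p, 0.00212 unadjusted and 0.229 adjusted in limma, with an amplitude of 0.24 on the log2 scale and a fitted peak at 2.28 h of the 24 h cycle.

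Genes that feed peptides to TAP moved in both directions in SHEP. Of 17 peptide supply genes, 6 were higher and 8 lower, near the shares of all genes (33.0% and 38.9%), with a median change of -0.11. The immunoproteasome subunit PSMB10 rose from 72.9 to 136 TPM (log2 change 0.89, limma adjusted p = 1.37e-23), while its partners PSMB9 (-0.67, limma adjusted p = 3.66e-18) and PSMB8 (-0.36, limma adjusted p = 1.05e-13) fell. The peptidases of the endoplasmic reticulum, ERAP1 (-0.87) and ERAP2 (-1.22), fell, and the cytosolic peptidases BLMH (1.73) and THOP1 (0.73) rose. NPEPPS, a cytosolic aminopeptidase named here after its values were seen, fell by 0.45 (limma adjusted p = 3.05e-11), in 28 of 28 pairs. In SKNAS, 5 were higher and 2 lower, against 13.9% and 34.2% of all genes, with a median of 0.085, above the -0.29 of all genes. PSMB10 rose there from 105 to 345 TPM (1.68, limma adjusted p = 7.83e-06), and by 1.22 among libraries of high median (limma adjusted p = 0.000141). PSMB8 rose by 0.34 (limma adjusted p = 0.0467), but was at -0.01 among libraries of high median, and PSMB9 was at 0.23 (limma adjusted p = 0.0568). ERAP1 was at -0.76 (limma adjusted p = 0.0546) and 0.092 among libraries of high median (limma adjusted p = 0.92).

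Most folding and loading partners in the endoplasmic reticulum fell in SHEP. Of 11 listed, 10 were lower and 1 higher in SHEP (median change -0.41), where 38.9% of all genes were lower and 33.0% higher. TAPBPL, the tapasin-related peptide editor, fell from 12.1 to 3.95 TPM (-1.40, limma adjusted p = 2.38e-26), CALR, the calreticulin of the loading complex, from 1176 to 555 TPM (-1.09, limma adjusted p = 1.09e-26), and HSPA5, a general chaperone, by 0.57. PDIA3, the oxidoreductase that pairs with tapasin, fell by 0.48, and SAR1B, a coat protein GTPase of vesicles leaving the endoplasmic reticulum, rose by 0.23. In SKNAS, 7 were lower and 0 higher, against 34.2% and 13.9% of all genes, with CALR at -0.88 (limma adjusted p = 3e-05) and PDIA3 at -0.41 (limma adjusted p = 0.00855). After rescaling 2 were lower, against 23.9% of all genes, with CALR at -0.51 (limma adjusted p = 0.00066) and PDIA3 at -0.03 (limma adjusted p = 0.882).

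Of 17 regulators of class I transcription tested in SHEP, 3 were higher, 5 were lower and 9 were not called, where 33.0% of all genes were higher and 38.9% lower. IRF1, an interferon-induced activator, fell by 0.84 (limma adjusted p = 2.51e-15), from 46.8 to 25.8 TPM, and by 1.00 in SKNAS (limma adjusted p = 0.00463), where it was at -0.67 (limma adjusted p = 0.239) among libraries of high median. RFXANK (-0.41) and IRF2 (-0.35) also fell in SHEP, and EZH2, the Polycomb methyltransferase, rose by 0.27, NFYC by 0.17 and ATF1 by 0.15. RFX5, which with RFXAP and RFXANK forms the complex that NLRC5 works through, was at 0.02 in SHEP (limma adjusted p = 0.725). In SKNAS 4 of 17 regulators were lower and 1 higher, against 34.2% and 13.9% of all genes. RFX5 was at -0.54 in SKNAS (limma adjusted p = 0.217) on TPM and rose by 0.38 (limma adjusted p = 0.000653) with the covariate. CIITA, the class II counterpart of NLRC5, was under 0.3 TPM on average in all 4 groups and was not tested.

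Most interferon-stimulated genes tested were lower in SHEP MYC-ON, while the signalling genes were mixed. In SHEP, 7 of 14 receptors and signalling genes were lower, 2 were higher and 5 were not called, and 16 of 18 tested interferon-stimulated genes were lower and 0 higher, with a median of -0.79 against -0.036 over all genes. Of all genes, 38.9% were lower and 33.0% higher. SOCS1 (-1.45), IRF9 (-1.31) and STAT2 (-0.99) led the first list and IFIT3 (-1.72), BST2 (-1.50) and IFI35 (-1.35) the second. The phosphatase PTPN2, which dampens interferon signalling, rose by 0.54 and the receptor chain IFNGR1 by 0.18. In SKNAS, 8 of 14 signalling genes were lower and 1 higher, and 12 of 18 stimulated genes were lower and 1 higher. Of all genes, 34.2% were lower and 13.9% higher. After rescaling 7 signalling and 7 stimulated genes were lower (23.9% of all genes). Among libraries of high median 0 and 2 were called lower (8.49% of all genes), with PTPN2 higher at 1.18 (limma adjusted p = 0.00192).

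Class I-like genes and ligands of NK or T cell receptors moved mostly down in SHEP. Of 12 tested in SHEP, 8 were lower and 3 higher, where 38.9% of all genes were lower and 33.0% higher. FCGRT, the neonatal Fc receptor chain that also pairs with B2M, fell by 1.14, NECTIN2 by 1.05 and MR1, which presents vitamin metabolites, by 0.85. NCR3LG1, a ligand of an activating NK receptor, rose from 3.69 to 10.05 TPM (1.22, limma adjusted p = 7.1e-21), and the poliovirus receptor PVR rose by 0.18. CD274, which encodes PD-L1, rose in SHEP from 29.7 to 39.8 TPM (0.35, limma adjusted p = 0.000103) and fell in SKNAS from 14.1 to 6.79 TPM (-1.03, limma adjusted p = 0.00048), a difference between lines of -1.39 (limma adjusted p = 5.23e-10). Among libraries of high median its SKNAS change was -0.61 (limma adjusted p = 0.3). In SKNAS, 9 of 11 tested were lower and 1 higher, with 7 lower after rescaling and 4 lower among libraries of high median. Of all genes, 34.2% were lower and 13.9% higher, with 23.9% lower after rescaling and 8.49% lower among libraries of high median.

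Class II transcripts were few. Of 10 class II genes, 4 passed the filter in SHEP and all 4 were lower (38.9% of all genes were), led by the protease CTSS (-1.56), HLA-DPB1 (-0.85) and HLA-DMA (-0.58). In SKNAS 2 passed and both were lower (34.2% of all genes were), CTSS by 1.05 and HLA-DMA by 0.39. After rescaling HLA-DMA was at -0.11 (limma adjusted p = 0.588), and among libraries of high median limma called 0 of the 3 tested, with CTSS at -1.04 (limma adjusted p = 0.0823) and HLA-DMA at 0.29 (limma adjusted p = 0.74). The class II genes HLA-DRA and CD74 averaged under 0.3 TPM in each group.

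The 9 genes did not move as 1 block across libraries. Over the 56 SHEP libraries, Pearson's r with the mean z score of the 9 was 0.968 for HLA-C, 0.948 for TAPBP, 0.935 for TAP1 and 0.925 for HLA-E, but 0.271 for TAP2 and -0.167 for NLRC5. Over the 27 SKNAS libraries it was 0.907 for TAP1, 0.879 for HLA-E and 0.861 for TAPBP, 0.301 for HLA-B and -0.526 for NLRC5. Each gene is part of that mean, and libraries share conditions, series and scaling, so these values are descriptions. The pair NLRC5 and B2M had r = -0.431 in SHEP and -0.721 in SKNAS. Outside the 9, the genes most like their mean included COL6A2 (r = 0.973), CTSB, MFGE8, PTK7 and GPX4 (r = 0.96) in SHEP, and KIFC2 (r = 0.953), DMPK, CDIPT and CNPY4 (r = 0.942) in SKNAS.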

How the data were processed

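TPM per gene were deposited for 83 libraries. Per the labels and the study's methods, the authors ran Salmon 1.3.0 on Gencode transcripts of GRCh38 and brought the estimates to genes with Tximport. TPM keep no read depth, so a count model was not used. The 9 genes were taken by symbol. The members, the gene lists and the tests were chosen with earlier results of these data known.

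On log2(TPM + 1), limma 3.58.1 (R 4.3.3) with trended variance compared levels, with CT as a factor, for every gene whose mean TPM reached 1 in the fit. Fold changes on this scale understate those of low genes. Trends used linear CT with series as a factor in SHEP, and rhythms added a 24 h cosine and sine. The study's rhythm tool was not used. Ratios within libraries were tested by 2-sided sign-flip permutation over same-CT pairs (numpy 2.4.6, 100000 resamples in SHEP, all 8192 in SKNAS). In libraries of high median, labels were permuted exactly (286 arrangements). Adjusted p are Benjamini-Hochberg values. Fits were also run on simulated data with independent noise for each library. Those data held no shift of library medians, no series effect and no correlation along time, so they do not test how the fits deal with these. Named list genes are up to 3 per direction with the largest change in SHEP, plus 12 set genes. Some genes these rules name are not reported here. Promoters came from RefSeq (GRCh38.p14), coordinates from Gencode 44, which held 60028 of the 60237 gene identifiers. Alternatives were median-of-ratios rescaling, the library median as covariate, a pseudocount of 0.1, no filter, a replicate block, series means, single series and SKNAS libraries with a median of at least 3.8. The combination of rescaling with that subset, and the ratios in it, were added after seeing the data.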

Additional observations from a re-analysis of the deposited data

Results flagged for a closer look

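The response to activated N-MYC differed between SHEP and SKNAS for 4 genes, by the interaction test in limma. Of all 14870 genes tested, 13.4% were called higher in that test and 38.1% lower. The difference, SKNAS minus SHEP in log2 change, was 0.71 for HLA-B (adjusted p = 2.79e-07), 0.31 for HLA-C (adjusted p = 0.000339), 0.38 for TAP2 (adjusted p = 0.00787) and 0.37 for NLRC5 (adjusted p = 0.0134). Within SHEP, the time trend differed between MYC-ON and MYC-OFF for 5 genes, by the interaction of condition and CT in limma. Of all 14362 genes tested, 16.1% had a higher trend in MYC-ON and 27.4% a lower one. The difference, MYC-ON minus MYC-OFF in log2 per 24 h, was 0.37 for HLA-B (adjusted p = 0.000219), 0.21 for HLA-E (adjusted p = 0.000147), -0.19 for TAP2 (adjusted p = 0.0238), -0.31 for TAPBP (adjusted p = 0.000106) and -0.27 for NLRC5 (adjusted p = 0.0241). HLA-B, TAP2 and NLRC5 differed in both ways. The groups had more than 10 libraries each, so single libraries were not tested as outliers.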

How the results depend on the processing

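Library depth is unknown from TPM, SKNAS has 1 experiment, and its medians differ between conditions, so SKNAS levels carry the least weight. Values are log2 and counts are of the 9 genes. SKNAS MYC effect: 2 higher and 3 lower after rescaling (HLA-B 0.36, B2M 0.032), 2 higher with the covariate, and 0 higher and 1 lower in libraries of high median with or without rescaling. Of all genes, 27.6% were higher and 23.9% lower after rescaling, and 28.3% were higher with the covariate. In libraries of high median 6.07% were higher and 8.49% lower, or 5.79% and 5.91% with rescaling, in fits that rested on CT32 and CT44. Interaction: 7 higher after rescaling (25.6% of all genes) and 0 among high medians (6.81% of all genes). TAP1 was 0.071 after rescaling and 0.023 with the covariate, and HLA-F was 0.19 after rescaling. Lines in MYC-ON: 2 lower after rescaling (HLA-B -1.60 and B2M -0.25), where 40.1% of all genes were lower and NLRC5 was -0.17 and not called. B2M was -0.13 with the covariate. TAP1 trends were 0.011 (difference, rescaled) and -0.016 (MYC-ON, covariate). Series means gave 0 higher in SHEP, against 24.2% of all genes.

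With 1 SHEP series left out, counts ranged as follows: SHEP effect 0 to 1 higher, interaction 2 to 3 higher, MYC-OFF trends 0 to 3 higher and 0 lower, MYC-ON trends 2 to 5 higher, trend differences 1 to 2 higher and 1 to 2 lower. Of all genes, 30.7% to 31.0% were higher for the SHEP effect and 8.49% to 9.53% for the interaction. For MYC-OFF trends 1.21% to 3.37% were higher and 1.11% to 9.41% lower. For MYC-ON trends 16.4% to 17.5% were higher. For trend differences 11.2% to 11.3% were higher and 19.5% to 20.7% lower. Ranges that changed sign were, for trend differences, HLA-F -0.065 to 0.19, B2M -0.14 to 0.020 and TAP1 -0.091 to 0.038. For the interaction, HLA-F was -0.043 to 0.020 and B2M -0.065 to 0.12. For trends, HLA-E in MYC-OFF was -0.011 to 0.022, and in MYC-ON HLA-C was -0.063 to 0.18 and TAP1 -0.039 to 0.059.

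The SHEP ratios without 1 series were -0.17 to -0.27 for HLA-F to HLA-B and 0.054 to 0.20 for TAP1 to PSMB9. Medians over pairs were -0.031 for HLA-B to HLA-C in SHEP, -0.63 for HLA-E to HLA-B (adjusted p = 0.0938) and -0.043 for heavy chains to B2M in SKNAS. Libraries of high median gave -0.10 and -0.34 for these last SKNAS ratios. The cause of these shifts was not tested. The 2 SHEP series were separate experiments holding both conditions, and their deviations went together between conditions (r = 0.489 across 14362 genes, which are not replicates). A replicate block changed no call of the 9 genes (7 lower, 1 higher, with NLRC5 at 0.19, limma adjusted p = 0.00836), where 39.1% of all genes were lower and 33.2% higher.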
